A study of Caenorhabditis elegans with 3 samples.

Results

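The genes described here encode parts of the mitochondrial respiratory chain, cytochrome c and ATP synthase of Caenorhabditis elegans. They were chosen by name: a platform or current symbol that starts with nuo-, cox-, cyc-, ucr-, atp- or asg- and a digit, or that is gas-1, isp-1, mev-1 or clk-1. The rule found 33 rows of the deposited table, which belong to 31 genes among 14943 named genes in all. A further 9 genes of these names in the gene table, among them ucr-2.1, cox-6B and cox-10, were not analysed here. RNA of fem-1(lf) and of fem-3(gf) animals was hybridised together on 3 arrays, each with its own prep of either RNA. The genotype fem-1(lf) lacks the function of fem-1, a gene of the male pathway of sex determination, and XX animals of this kind make oocytes and no sperm. In fem-3(gf) the gene fem-3 of the same pathway is too active, and the XX germ line makes sperm and no oocytes. The labels give no allele, strain background, age, temperature or tissue, nor whether each prep had a culture of its own. The p-values therefore rest on differences among arrays that could be technical.

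The respiratory chain passes electrons from NADH through complex I, or from succinate through complex II, to the lipid ubiquinone. Complex III hands them on to cytochrome c, a small soluble protein, and complex IV (cytochrome c oxidase) delivers them to oxygen. The proton gradient so built drives ATP synthase. Oocytes of the worm carry the mitochondria that the embryo inherits, whereas the mitochondria of sperm serve the crawling cell and are destroyed after fertilisation. Some mitochondrial genes of the worm exist as paralogs, copies that arose by duplication and can be used in different cells.

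Each value is a log2 ratio as the authors deposited it, and values above 0 stand for more RNA in fem-1(lf). The labels name no dye, and this direction is the likely one because fem-1(lf) stands first in each description. The marker genes fixed for the germ cells went with it: all 8 oocyte markers measured were higher in fem-1(lf), with a median of 2.82, and all 9 sperm markers were higher in fem-3(gf), with a median of -4.57. Of 56 somatic marker genes (body muscle and pharynx, gut, cuticle, nerve cells), 2 were higher in fem-1(lf) past the test, against 21% of all features. Higher in fem-3(gf) were 24, against 23.7% of all features, and the median was -0.37. The means of the 56 genes ran from -2.74 (asp-1) to 2.07 (cpr-5), both gut genes, and 7 reached 2-fold. The medians of the 56 genes on the arrays of preps 1, 2 and 3 were -0.57, -0.37 and -0.26. The arrays held 21381, 21425 and 21403 values, and their correlations across features, which are not independent replicates, lay between 0.916 and 0.932. Every row of the 31 genes had a value on all 3 arrays. In RNA of whole preparations, fewer cells of a type and less RNA per cell cannot be told apart.

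Most of the 31 genes had similar levels in the 2 genotypes, and a single cytochrome c gene stood far from the rest. The test was limma's moderated test over all 19719 features, with Benjamini-Hochberg adjustment and a threshold of 0.05. It called 5 of the 31 genes higher in fem-1(lf), against 21% of all features, and 3 higher in fem-3(gf), against 23.7%. The other 23 genes did not pass. Without prep 2, 3 genes passed on the fem-1(lf) side, and without prep 3, 2 genes did, beside 1 gene still called higher in fem-3(gf). Calls over all features fell as well, on the fem-1(lf) side from 4148 to 3104 without prep 2 and 2884 without prep 3. On the fem-3(gf) side they fell from 4667 to 2723 without prep 3. The median of the 31 genes was -0.06, beside a median of -0.10 for all features tested. The mean ratio reached 2-fold in either direction for 2 of the 31 genes, cyc-2.2 and cox-15, against 18.9% of all features. The typical SD between arrays was 0.15 for the 31 genes and 0.22 for all features (medians over genes, n = 3).

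**Figure D1:**
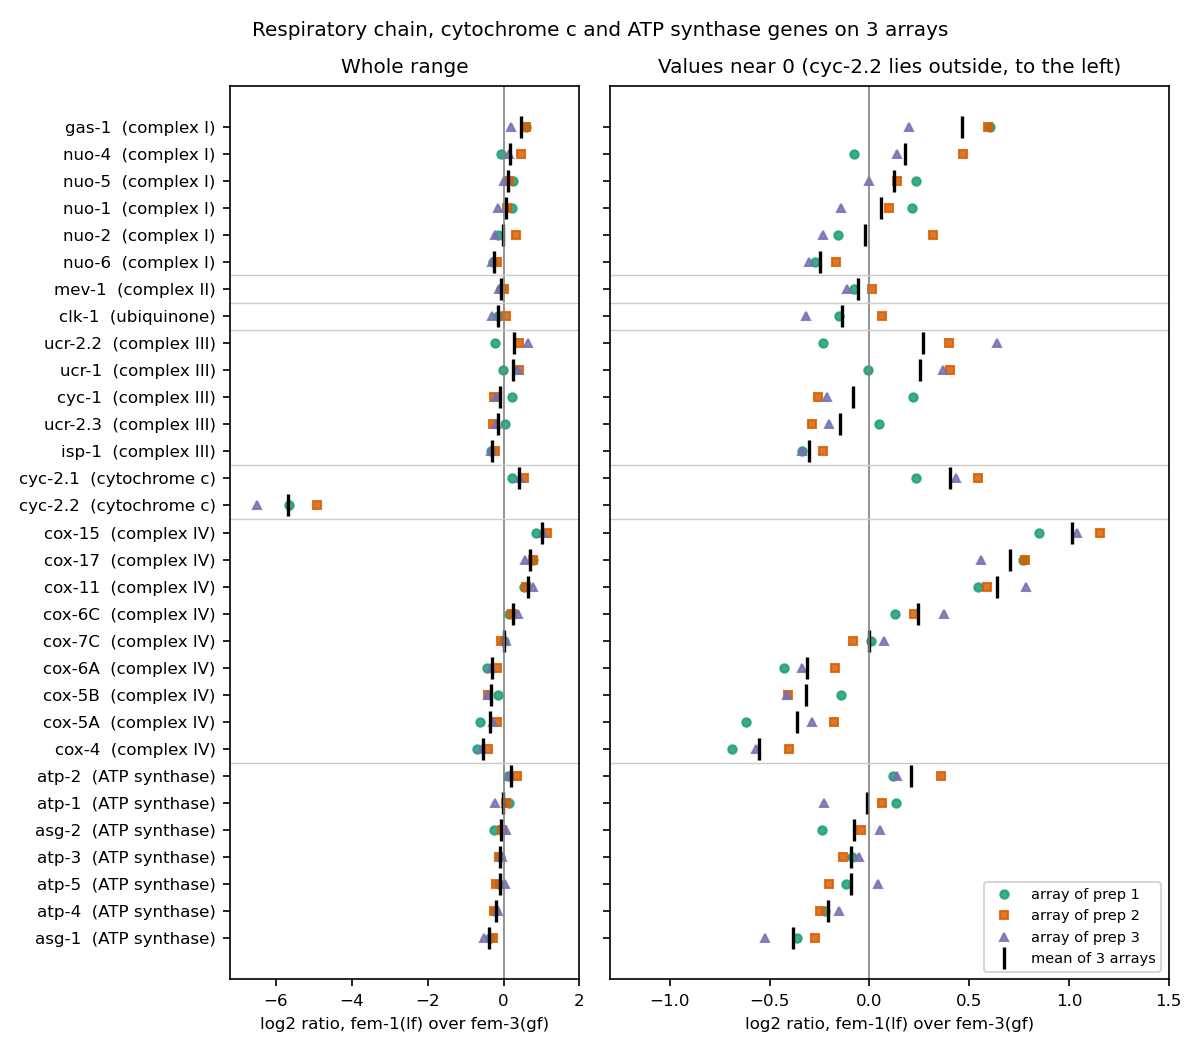
Log2 ratios of fem-1(lf) over fem-3(gf) for the 31 genes (x axis) by role in the respiratory chain (y axis), with a symbol for each of the 3 arrays and a bar for their mean; the right panel enlarges the range near 0. The gene cyc-2.2 lies near -5.69, and the means of the other 30 genes lie between -0.55 and 1.02.

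**Figure D2:**
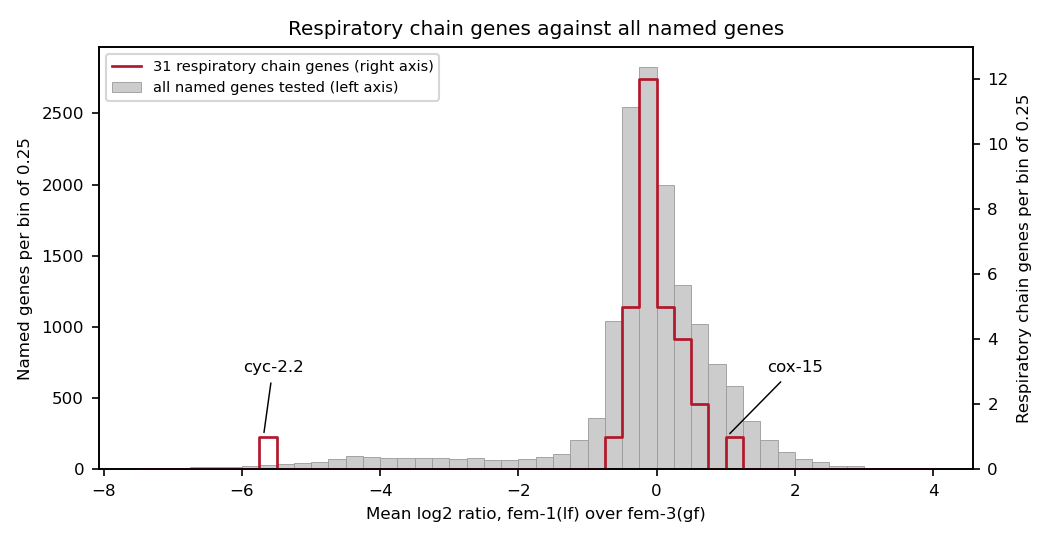
Number of genes (y axes) by mean log2 ratio of fem-1(lf) over fem-3(gf) (x axis, bins of 0.25), for the 14783 named genes tested (grey bars, left axis) and the 31 respiratory chain genes (red line, right axis). The 31 genes lie around 0 apart from cyc-2.2, while the distribution of all named genes has a long tail on the fem-3(gf) side.

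The cytochrome c genes lay on opposite sides of 0. The gene cyc-2.2 (ZC116.2, chromosome V) had log2 ratios of -5.64, -4.92 and -6.51 on the arrays of preps 1, 2 and 3. All of them are far below 0, and their spread between the arrays was wider than that of the other 30 genes. The mean of -5.69 ± 0.79 (SD, n = 3) corresponds to a 51.6-fold higher level in fem-3(gf) (limma adjusted p = 6.518e-05). Only 80 of the 14783 named genes tested had a lower mean. The deposited linear ratios behind these values were 0.020, 0.033 and 0.011, and since ratios were rounded to thousandths, the value of prep 3 stands for a range from -6.57 to -6.44. The sperm markers had medians of -4.57, -4.27 and -4.57 on the same arrays, and their part in the cyc-2.2 ratio was not tested.

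The paralog cyc-2.1 (E04A4.7, chromosome IV), which encodes the other cytochrome c, had log2 ratios of 0.23, 0.55 and 0.43. It was above 0 on every array, at 0.40 ± 0.16 or 1.32-fold higher in fem-1(lf) (limma adjusted p = 0.0444). This call was lost without prep 2 (0.33) and without prep 3 (0.39). On each array cyc-2.1 lay above cyc-2.2, by 5.88, 5.47 and 6.94 on the log2 scale. The mean difference of 6.09 ± 0.76 (SD, n = 3) is 68.3-fold, and it does not depend on where 0 is set on an array. By the exact two-sided sign-flip permutation test p was 0.25, the smallest that 3 arrays allow (0.32 after adjustment over the 9 pairs of paralogs compared). Since paralogs share sequence, RNA of the other copy can bind to a spot as well, and how much did so was not tested.

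Complex IV genes divided by role. The 3 assembly factor genes measured, of 8 such genes in the gene table, were higher in fem-1(lf), against 21% of all features. Of the 6 genes of structural subunits, 5 had means at or below 0, while 11362 of all 19719 features had means below 0. Of these 5 genes cox-4 alone passed the test, while 23.7% of all features were called higher in fem-3(gf). On the arrays of preps 1, 2 and 3 the median of the assembly factor genes was 0.77, 0.78 and 0.78, against -0.29, -0.17 and -0.31 for the subunit genes. The 2 sets did not overlap in their means, whose lowest and highest were 0.64 and 1.02 for the factors and -0.55 and 0.24 for the subunits. After centring on the somatic markers the median of the subunit genes was above 0, at 0.08. This division was seen in the data first and has no test of its own.

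Among the assembly factors, cox-15 (T06D8.5, chromosome II), which acts in making heme A for the oxidase, had log2 ratios of 0.85, 1.15 and 1.04. Its mean of 1.02 ± 0.15 (SD, n = 3) is 2.02-fold (limma adjusted p = 0.00171). The copper chaperone gene cox-17 (F40G9.2, chromosome III) had 0.77, 0.78 and 0.56, with a mean of 0.70 ± 0.12 (adjusted p = 0.00598). The gene cox-11 (JC8.5, chromosome IV), whose product helps to insert copper, had 0.54, 0.59 and 0.78, with a mean of 0.64 ± 0.13 (adjusted p = 0.0085). Each of these values was above that of every subunit gene of complex IV on the same array. The call of cox-11 was lost without prep 3 (0.57).

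Among the subunit genes of complex IV, cox-4 (W09C5.8, chromosome I) had log2 ratios of -0.69, -0.41 and -0.57. It was below 0 on every array, at -0.55 ± 0.14 (SD, n = 3) or 1.47-fold higher in fem-3(gf) (limma adjusted p = 0.0149), and the call was lost without prep 3 (-0.55). The genes cox-5A, cox-5B and cox-6A were also below 0 on every array, with means of -0.36 ± 0.23, -0.32 ± 0.16 and -0.31 ± 0.13, but did not pass (adjusted p = 0.0793, 0.0835 and 0.0825). The 2 rows of cox-6A gave -0.41 and -0.21, and with each row fitted separately cox-6A was called (lower of the limma adjusted p-values 0.0389). By contrast cox-6C was above 0 on every array, at 0.24 ± 0.12, and cox-7C was at 0.00 ± 0.08, and neither passed (adjusted p = 0.149 and 0.998). The 95% interval of cox-7C ran from -0.29 to 0.28.

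Of the 6 complex I genes 1 passed the test, against 44.7% of all features. This was gas-1 (K09A9.5, chromosome X), which encodes a core subunit near the site where ubiquinone binds. Its log2 ratios were 0.60, 0.59 and 0.20, and the array of prep 3 lay apart from the others. The mean of 0.46 ± 0.23 (SD, n = 3) is 1.38-fold higher in fem-1(lf) (limma adjusted p = 0.0394). The call was lost without prep 1 (0.39), without prep 2 (0.40) and without prep 3 (0.60). The flavoprotein gene nuo-1, which takes electrons from NADH, had a mean of 0.06 ± 0.18, and the core subunit genes nuo-5 and nuo-2 had 0.12 ± 0.12 and -0.02 ± 0.30. The accessory subunit genes nuo-4 and nuo-6 had 0.18 ± 0.28 and -0.25 ± 0.07, and nuo-6 was below 0 on every array. The adjusted p-values of these 5 genes lay between 0.129 and 0.907.

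Complex II and ubiquinone are each represented by a gene known from mutants with altered lifespan. The cytochrome b subunit gene mev-1 of complex II had log2 ratios of -0.08, 0.01 and -0.11, and clk-1, which encodes a hydroxylase of ubiquinone synthesis, had -0.15, 0.06 and -0.32. Their signs were mixed over the arrays, and neither passed (means -0.06 ± 0.06 and -0.14 ± 0.19, limma adjusted p = 0.693 and 0.424).

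None of the 5 complex III genes passed limma's test, which 44.7% of all features passed, and none had an unadjusted p under 0.05 except isp-1. This gene, which encodes the Rieske iron-sulphur protein, had log2 ratios of -0.34, -0.23 and -0.34, a mean of -0.30 ± 0.06 (SD, n = 3, unadjusted p = 0.0396 and adjusted p = 0.0774). The cytochrome c1 gene cyc-1 had 0.22, -0.26 and -0.21 (adjusted p = 0.653), so the array of prep 1 lay on the other side of 0. Of the core protein genes, ucr-1 had -0.01, 0.40 and 0.37, and ucr-2.2 had -0.23, 0.40 and 0.64. In these genes too the array of prep 1 lay apart from the others, and their means were 0.25 ± 0.23 and 0.27 ± 0.45 (adjusted p = 0.178 and 0.294). The paralog ucr-2.3 had 0.05, -0.29 and -0.20, with a mean of -0.15 ± 0.17. Without prep 1, ucr-2.2 was at 0.52 and passed the test (adjusted p = 0.0364). The difference of ucr-2.2 minus ucr-2.3 was -0.28, 0.69 and 0.84 on the arrays, a mean of 0.42 ± 0.61 with mixed signs (exact permutation p = 0.50).

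The 7 ATP synthase genes had means between -0.39 and 0.21. Of these genes 6 did not pass and 1 did, while 44.7% of all features passed. The gene past the test was asg-1 (K07A12.3, chromosome I), a gene of subunit g, with log2 ratios of -0.36, -0.27 and -0.52. These values were all below 0, with a mean of -0.39 ± 0.13 (SD, n = 3) that is 1.31-fold higher in fem-3(gf) (limma adjusted p = 0.0459). The call was lost without prep 1 (-0.40), prep 2 (-0.44) or prep 3 (-0.32). The call was also lost after centring on the array medians (-0.29, adjusted p = 0.115) and scaling to the same spread (-0.29, adjusted p = 0.106). Centring on the somatic markers put the mean at 0.02, which was not called. The genes atp-1 (alpha subunit) and atp-2 (beta subunit) had means of -0.01 ± 0.19 and 0.21 ± 0.13. The stalk subunit genes atp-3, atp-4 and atp-5 had -0.09 ± 0.04, -0.21 ± 0.05 and -0.09 ± 0.13. The adjusted p-values of these 5 genes lay between 0.187 and 0.951. The paralog asg-2 (C53B7.4, chromosome X) had a mean of -0.08 ± 0.15, but its 2 rows gave -0.57, -0.04 and 0.39 against 0.09, -0.04 and -0.28 on the 3 arrays. The rows thus disagreed on the arrays of preps 1 and 3. The difference of asg-1 minus asg-2 was -0.12, -0.23 and -0.58, a mean of -0.31 ± 0.24 (exact permutation p = 0.25, the smallest possible).

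**Figure D3:**
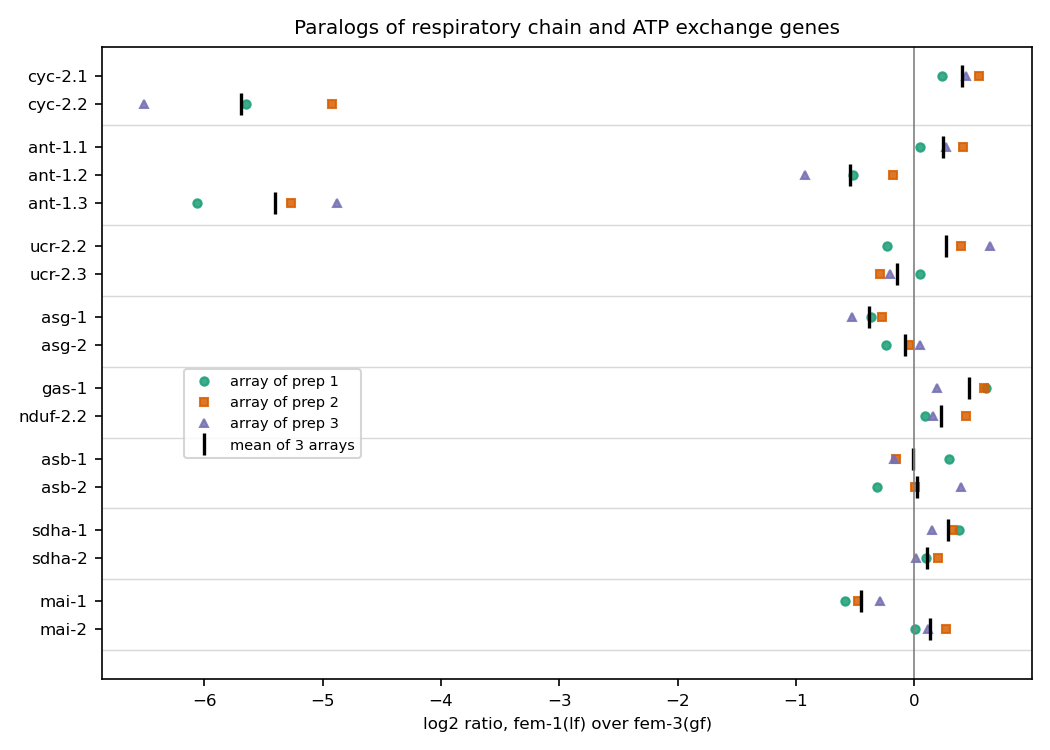
Log2 ratios of fem-1(lf) over fem-3(gf) (x axis) for sets of paralogs (y axis), with a symbol for each of the 3 arrays and a bar for their mean. The paralogs cyc-2.2 and ant-1.3 lie at -4.88 or lower on every array, and all other genes shown lie between -0.92 and 0.64.

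The other genes of the pathway were taken from lists written for this work, with 45 of 56 genes tested. Of these, 17 were higher in fem-1(lf), 4 were higher in fem-3(gf) and 24 did not pass limma's test, with a median of 0.23. The 21 genes past the test in either direction are 46.7% of those tested, close to the 44.7% of all features. By direction the shares differed, but the lists were chosen with earlier results of these data known and were not tested as sets. Higher in fem-1(lf) were 17 of the 45 genes, against 21% of all features. Higher in fem-3(gf) were 4 of the 45 genes, against 23.7% of all features. The median of all features was -0.10. Without prep 2 or prep 3, 11 genes were called higher in fem-1(lf), while the calls over all features fell from 4148 to 3104 and 2884. Without preps 1, 2 and 3 in turn, 2, 2 and 1 genes were called higher in fem-3(gf), and 1 gene was after centring on the array medians.

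The genes that mature cytochrome c and assemble complexes III and IV were nearly all higher in fem-1(lf). Of 8 tested, 7 rose, against 21% of all features, and coa-3 (0.21, adjusted p = 0.276) did not pass, with a median of 0.57. All 8 genes were above 0 on every array, which held for 29.5% of all features. Those that rose were led by bcs-1, a homolog of a yeast factor that helps to insert the Rieske protein into complex III, with log2 ratios of 1.21, 1.19 and 1.21. Its mean is 2.3-fold (limma adjusted p = 0.000646). The oxidase assembly factor genes coa-5 and coa-4 had means of 1.11 and 0.86, and the 2 rows of coa-4 gave 0.96 and 0.77. The copper delivery gene sco-1 was at 0.53 and cchl-1, which encodes the enzyme that attaches heme to cytochrome c, at 0.46 (adjusted p = 0.0153 and 0.024). The number that rose was 6, 4 and 5 of 8 without preps 1, 2 and 3.

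Among the genes of ubiquinone synthesis other than clk-1, 4 of 6 tested were called, against 21% of all features called higher in fem-1(lf). The genes coq-8, coq-4, coq-3 and coq-1 rose in fem-1(lf), with means of 0.81, 0.59, 0.57 and 0.56 (limma adjusted p between 0.00289 and 0.0172). The remaining genes, coq-6 at 0.25 and coq-2 at 0.05, did not pass. The kinase-like gene coq-8 had 0.87, 0.80 and 0.77 on the arrays, a narrow range. Without prep 2 and without prep 3, 2 of the 6 genes were called.

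Few other genes of complexes I and II passed the test, which 44.7% of all features passed in either direction. Of 9 further complex I genes, nuaf-3, which encodes an assembly factor, was the only one called (0.84, limma adjusted p = 0.00316), with the median of the list at 0.18. After centring on the somatic markers 7 of the 9 were called higher in fem-1(lf), with a median of 0.58, and after scaling 2 were. Of all 19719 features, 7446 and 4859 were called higher in fem-1(lf) under these settings. The paralog of gas-1, nduf-2.2, had a mean of 0.23, and the difference of gas-1 minus nduf-2.2 was 0.51, 0.16 and 0.04 on the arrays (mean 0.24 ± 0.25, exact permutation p = 0.25). None of 3 further complex II genes passed limma's test. The lowest unadjusted p among them was that of sdhd-1 (0.36, unadjusted p = 0.0267, adjusted p = 0.0574), which is the only one of the 3 under 0.05 and which passed after median centring (0.45, adjusted p = 0.0267). After scaling 2 of the 3 were called higher in fem-1(lf), among them sdha-1 (0.38, adjusted p = 0.0496). After centring on the somatic markers all 3 were, beside the 7446 of all 19719 features. The flavoprotein paralogs sdha-1 and sdha-2 had means of 0.28 and 0.11, a difference of 0.18 ± 0.09 (exact permutation p = 0.25).

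Of 8 further genes of ATP synthase and its inhibitors, none rose in fem-1(lf), against 21% of all features. Higher in fem-3(gf) were 2 of the 8, mai-1 and R53.4, a share close to the 23.7% of all features. The gene mai-1, which encodes an inhibitor of the enzyme, had log2 ratios of -0.59, -0.48 and -0.29 (mean -0.45, limma adjusted p = 0.0305), and R53.4 had a mean of -0.42 (adjusted p = 0.0456). The call of mai-1 was lost without any 1 of the preps, and that of R53.4 without prep 2 or prep 3. Both calls were lost after median centring (-0.36 and -0.33), scaling (-0.36 and -0.33) and somatic centring (-0.05 and -0.02). The paralog mai-2 had a mean of 0.13, and mai-1 lay below it on every array, by 0.58 ± 0.17 on average (mean difference -0.58, exact permutation p = 0.25). The paralogs asb-1 and asb-2, which encode subunit b, had means of -0.01 and 0.03, and their difference changed sign between arrays, at 0.61, -0.16 and -0.56 (exact permutation p = 1.0).

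The carriers of ATP and ADP across the inner membrane also included paralogs that lay far apart. The adenine nucleotide translocase gene ant-1.3 had log2 ratios of -6.06, -5.27 and -4.88, all far below 0. Its mean of -5.40 is 42.2-fold higher in fem-3(gf) (limma adjusted p = 3.572e-05), and 121 named genes had a lower mean. The paralog ant-1.1 had 0.05, 0.41 and 0.27 (mean 0.24, adjusted p = 0.173). The difference of ant-1.1 minus ant-1.3 was 6.11, 5.68 and 5.15, with a mean of 5.64 ± 0.48 or 50.0-fold (exact permutation p = 0.25, the smallest possible). The paralog ant-1.2 was lower than ant-1.1 on every array, by 0.78 ± 0.36 on average (0.56, 0.59 and 1.19, exact permutation p = 0.25). Its own mean of -0.54 passed only narrowly (adjusted p = 0.0475), and the call was lost without prep 1 (-0.55) and without prep 3 (-0.35). The call was also lost after median centring (-0.44), scaling (-0.44) and somatic centring (-0.14), and with features seen on 2 arrays admitted (limma adjusted p = 0.0502).

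Genes of other membrane proteins lay on both sides of 0. The carrier genes misc-1 and ucp-4 and the porin gene vdac-1 of the outer membrane had means of 1.03, 0.95 and 0.60 (limma adjusted p = 0.00152, 0.00354 and 0.00902), and vdac-1 was not called without prep 3 (0.57). Of 5 genes that organise the inner membrane, the prohibitin gene phb-2 (0.77, adjusted p = 0.00571) and immt-1 (0.51, adjusted p = 0.0498) rose, against 21% of all features. The genes immt-2 (-0.32, adjusted p = 0.0865) and chch-3 (-0.25, adjusted p = 0.152) were below 0 on every array and moma-1 was at -0.02 (adjusted p = 0.929), so the median of the 5 genes was -0.02. The values of immt-1 were 0.15, 0.84 and 0.53, and its call was lost without prep 2 (0.34) and without prep 3 (0.50). The call of immt-1 was also lost with features seen on 2 arrays admitted and with each row fitted separately (limma adjusted p = 0.0526 and 0.0504).

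**Figure D4:**
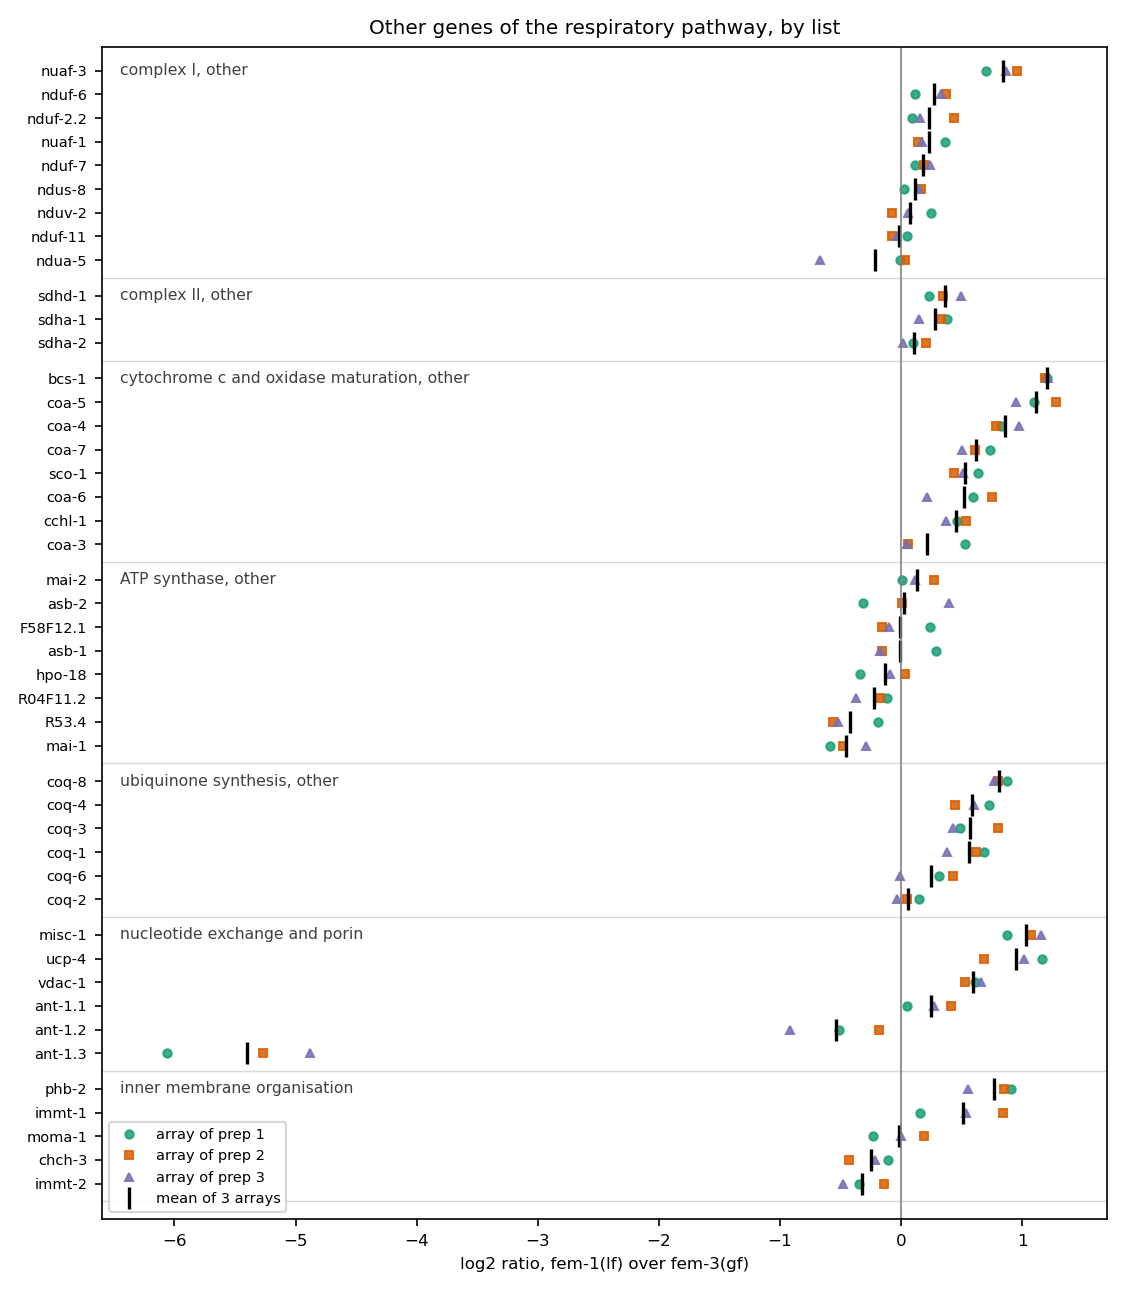
Log2 ratios of fem-1(lf) over fem-3(gf) (x axis) for the 45 other genes of the pathway (y axis), grouped by list, with a symbol for each of the 3 arrays and a bar for their mean. All 8 maturation genes lie above 0 on every array, and ant-1.3 lies between -6.06 and -4.88.

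By position, 3 of the 31 genes are on the X chromosome, namely gas-1, ucr-2.2 and asg-2. Their means were 0.46, 0.27 and -0.08, with a median of 0.27, against a median of -0.07 for the 28 autosomal genes. The numbers are too small for a comparison.

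The signs of small ratios depended on where 0 was set. Centring each array on its median raised the ratios by 0.10 on average and moved the median of the 31 genes to 0.04. It left 5 of the 31 genes called higher in fem-1(lf) and 2 higher in fem-3(gf). Of all 19719 features, 4703 and 3601 were called so. Centring on the somatic markers raised the ratios by 0.40 on average. It moved the median of all features to 0.30 and that of the 31 genes to 0.34. Of the 31 genes, 11 were then called higher in fem-1(lf) and cyc-2.2 alone higher in fem-3(gf). Of all 19719 features, 7446 were then called higher in fem-1(lf) and 2201 higher in fem-3(gf). The assembly factor genes of complex IV were called higher in fem-1(lf) under each of these settings. Their median was 0.80 after median centring, against -0.22 for the subunit genes. Centring on the somatic markers put the median of the subunit genes on the other side of 0, at 0.08, with cox-6C called higher in fem-1(lf) (0.64, adjusted p = 0.00707). The call of cox-4 was lost after centring on the somatic markers (-0.15, limma adjusted p = 0.481).

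**Figure D5:**
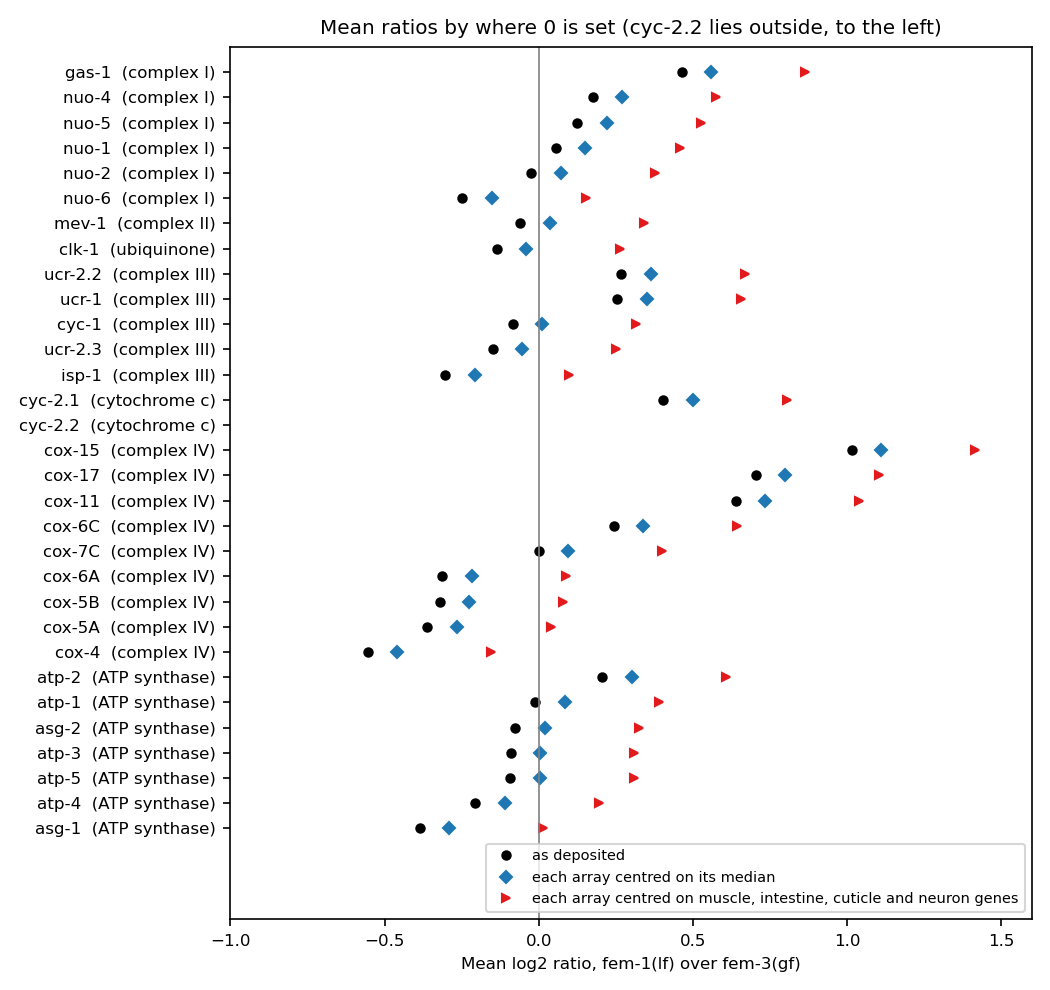
Mean log2 ratio of fem-1(lf) over fem-3(gf) (x axis) for the 31 genes (y axis), as deposited (circles), after centring on the array medians (diamonds) and after centring on the somatic marker genes (triangles). Centring moves every gene to the right, by about 0.10 and 0.40, so genes near 0 change sign while cox-15, cox-17 and cox-11 stay above 0.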

How the data were processed

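Each array carries 2 channels, and the authors deposited a log2 ratio for each spot. The base follows from the numbers, since raising 2 to them gives whole thousandths in 64205 of 64209 cases (tolerance 0.01). How the authors scaled the log2 ratios, subtracted background or removed dim spots before they deposited them is not given in the sources used here, nor is the dye of each channel, and no dye swap is stated. Brightness of the spots was not analysed here, and the number of arrays limits the precision.

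Names came from the platform's annotation, updated with RefSeq's table for WBcel235 by gene ID for 16360 of 16450 rows with 1 gene and by accession for 8. Another 247 rows had several genes and 4914 none. Several rows of the same gene were averaged within an array. With limma 3.58.1 (R 4.3.3), an intercept was fitted by lmFit and eBayes to features measured on all 3 arrays, two-sided, with Benjamini-Hochberg adjustment over 19719 features. All adjusted p-values not named otherwise come from it, and it was tested on simulated data. Differences between paralogs were tested by exact sign flips over the arrays. No dye, loess or intensity step was applied. Protein and promoter sequences were not used here.

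The members and lists were chosen with earlier results of these data known. All 31 members are named, and of the other lists the genes past the test and the paralogs, and where more than 3 genes on a side passed, the 3 largest. Also named after their values were seen are coa-3, sco-1, cchl-1, coq-1, coq-2, coq-6, sdhd-1, immt-2, chch-3 and moma-1. The genes nduf-11, nduv-2, ndua-5, hpo-18, F58F12.1 and R04F11.2 are named below because their signs turned under an alternative. The alternatives were centring on the median or on the somatic markers, scaling to the same spread, leaving out each array, admitting features seen on 2 arrays, robust eBayes, and fitting each row separately. Figures were drawn with matplotlib 3.10.9.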

Additional observations from a re-analysis of the deposited data

How the results depend on the processing

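The calls of cyc-2.2, cox-15 and cox-17 and their directions held under all 9 alternatives, with cyc-2.2 between -6.08 and -5.28, and the other 5 called genes lost their call under at least 1. Of the 31 genes, 5 were called higher in fem-1(lf), against 11 after centring on the somatic markers and between 2 and 5 without 1 array. Called higher in fem-3(gf) were 3, against 1 after that centring, 2 after median centring or scaling, and between 1 and 2 without 1 array. With each row fitted separately 4 were, with cox-6A added. The median of the 31 genes moved to 0.036 after median centring, 0.0363 after scaling and 0.34 after somatic centring. Of the other pathway genes, 30 were called higher in fem-1(lf) after somatic centring and between 11 and 16 without 1 array, and higher in fem-3(gf) 1 after median centring, 1 after scaling, 1 after somatic centring and between 1 and 2 without 1 array. For the other pathway genes, the alternatives beyond the 3 settings of 0 and scale were added after the data were seen.

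Genes whose sign turned were, apart from asg-1, not called as deposited. After median centring they were asg-2 (0.0195), atp-1 (0.0844), atp-3 (0.0042), atp-5 (0.0029), cox-7C (0.095), cyc-1 (0.0105), mev-1 (0.036), nuo-2 (0.0711), nduf-11 (0.0777), asb-1 (0.0837), F58F12.1 (0.0873) and moma-1 (0.0791). After scaling they were asg-2 (0.0213), atp-1 (0.0823), atp-3 (0.0023), atp-5 (0.0002), cox-7C (0.0924), cyc-1 (0.002), mev-1 (0.0363), nuo-2 (0.0776), nduf-11 (0.0746), asb-1 (0.0756), F58F12.1 (0.08) and moma-1 (0.0845). After somatic centring they were asg-1 (0.0151), asg-2 (0.32), atp-1 (0.39), atp-3 (0.31), atp-4 (0.19), atp-5 (0.31), clk-1 (0.26), cox-5A (0.0391), cox-5B (0.0799), cox-6A (0.0873), cox-7C (0.40), cyc-1 (0.32), isp-1 (0.0978), mev-1 (0.34), nuo-2 (0.38), nuo-6 (0.15), ucr-2.3 (0.25), nduf-11 (0.38), ndua-5 (0.18), asb-1 (0.39), hpo-18 (0.27), F58F12.1 (0.39), R04F11.2 (0.18), immt-2 (0.0789), chch-3 (0.15) and moma-1 (0.38). The shifts after median and somatic centring follow from the constant that each centring adds to an array. Scaling also divided each array by its spread relative to the others.

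Without 1 array the ranges that crossed 0 were those of asg-2 (-0.14 to 0.0062), atp-1 (-0.0819 to 0.0965), cox-7C (-0.0364 to 0.0395), cyc-1 (-0.24 to 0.002), nuo-1 (-0.0219 to 0.16), nuo-2 (-0.20 to 0.0808), nduf-11 (-0.0515 to 0.0098), nduv-2 (-0.0066 to 0.15), ndua-5 (-0.34 to 0.0114), asb-1 (-0.16 to 0.0682), asb-2 (-0.16 to 0.20), F58F12.1 (-0.13 to 0.068) and moma-1 (-0.12 to 0.0912). The difference of asb-1 minus asb-2 ran from -0.36 to 0.22. No other difference between paralogs changed sign. Every array holds both genotypes, so each log2 ratio compares them within an array and the test was a paired one. No further pairing was analysed, because all arrays form 1 group. No signal over background was analysed, so low ratios such as those of cyc-2.2 cannot be weighed by it.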
